A study of Mus musculus with 11 samples.

Results

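Transcripts of the vascular endothelial growth factor (VEGF) system were followed in hearts of mouse embryos that differed in their alleles of Gata4 and Nkx2-5. The family was taken as 9 genes: the ligands Vegfa, Vegfb, Vegfc and Pgf, the receptor tyrosine kinases Flt1, Kdr and Flt4, and the neuropilins Nrp1 and Nrp2. The 9 genes were chosen with earlier results of these data known, so shares called among them are descriptions. Their probe sets were taken by symbol alone. A probe set is a group of short probes on the array designed against the same transcript. Every probe set whose single annotated gene was one of the 9 was used. This gave 22 of the 45037 probe sets tested and 9 of 18193 genes, and each member had at least 1. Vegfa had 2 probe sets, Vegfc 3, Flt4 2, Flt1, Nrp1 and Nrp2 4 each, and Vegfb, Pgf and Kdr 1 each. Probe sets of 1 gene share their target and are not independent. The brightest probe set on average represents the gene (with those marked as less specific passed over), and it is meant where none is specified.

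The samples were pools of hearts at embryonic day 9.5, with 1 array per sample and 11 arrays in all. Control hearts carried 1 floxed Gata4 allele and were wild-type at Nkx2-5 (Gata4 flox/+; Nkx2-5 +/+, n = 3 arrays). Double heterozygous hearts carried 1 floxed Gata4 allele and Cre recombinase at 1 Nkx2-5 allele (Gata4 flox/+; Nkx2-5 cre/+, n = 3). Conditional knockout (CKO) hearts carried 2 floxed Gata4 alleles and the same Cre allele (Gata4 flox/flox; Nkx2-5 cre/+, n = 5). All groups thus had at least 1 floxed Gata4 allele, both Cre groups had 1 altered Nkx2-5 allele, and the Cre follows the expression of Nkx2-5 in cardiac progenitors and heart muscle. Whether replicates came from separate pools or litters is not given in the labels, so p-values measure the spread between these samples only, which may be technical, and the number of arrays limits the precision.

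Intensities are given as quantile-normalised log2(intensity + 16), where 1 unit is a doubling well above the offset of 16, and fold changes on this scale understate changes of dim genes. On the probe set that represents it, Gata4 signal was called higher in CKO than in control arrays (9.28 to 9.53 against 8.77 to 9.09, difference 0.45, limma adjusted p = 0.0321). On its other probe set it was 6.42 to 8.81 in CKO, 7.98 to 8.15 in control and 8.27 to 8.65 in double heterozygous arrays, with neither difference of the CKO arrays called (0.082 and -0.32, limma adjusted p of 0.958 and 0.781). Gata4 thus was not called lower in these arrays, and no source used here says whether its probes lie in the deleted part, so these arrays are called CKO-labelled. Nkx2-5 read 9.83 to 9.93 in control, 9.37 to 9.54 in double heterozygous and 8.78 to 9.64 in CKO-labelled arrays. By mean deposited intensity, CKO replicate 3 was the dimmest at 117.2, the other 10 arrays lying between 166.4 and 175.6. Its mean correlation with its own group was 0.965, that of CKO replicate 2 was 0.967 and those of the other 9 arrays were 0.977 to 0.988. The 16 heart muscle markers had a mean of 11.81 to 11.98 in every array, and 0 of them had a deposited value of 0 in all arrays.

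VEGF ligands are secreted dimers that guide the formation of blood vessels and of the endocardium, the endothelial lining of the heart tube. VEGF-A acts mainly through the kinase KDR (VEGFR2), which drives endothelial proliferation, survival and migration, while FLT1 (VEGFR1) binds VEGF-A tightly with weak kinase activity, and its soluble form acts as a trap for the ligand. Placental growth factor and VEGF-B bind FLT1, VEGF-C binds FLT4 (VEGFR3) and, once processed, KDR, and neuropilins serve as co-receptors for VEGF and for class 3 semaphorins. In the embryonic heart the receptors are endothelial and endocardial genes, and Vegfa is also made by muscle and is a classical target of hypoxia-inducible factors.

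Vegfa, Flt1 and Kdr were the members that passed the test in CKO-labelled hearts, and the bases just upstream of their start sites are shown for that reason, from RefSeq (GRCm38.p6), 5′ to 3′ on the gene's strand. The Vegfa window is chr17:46032378-46032627 on the minus strand, at the farther upstream of its 2 listed starts. The Flt1 window is chr5:147726012-147726261 on the minus strand, and the Kdr window is chr5:75978456-75978705 on the minus strand. Capitals mark matches, on either strand, to the core of the hypoxia response element (ACGTG or GCGTG), to the GATA motif (AGATAA or AGATAG or TGATAA or TGATAG) or to an ETS core (CCGGAA).
Vegfa: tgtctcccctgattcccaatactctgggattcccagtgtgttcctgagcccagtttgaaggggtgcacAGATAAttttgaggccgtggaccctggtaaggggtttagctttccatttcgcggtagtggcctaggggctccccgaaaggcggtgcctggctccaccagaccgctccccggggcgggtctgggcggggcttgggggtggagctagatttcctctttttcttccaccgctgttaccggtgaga
Flt1: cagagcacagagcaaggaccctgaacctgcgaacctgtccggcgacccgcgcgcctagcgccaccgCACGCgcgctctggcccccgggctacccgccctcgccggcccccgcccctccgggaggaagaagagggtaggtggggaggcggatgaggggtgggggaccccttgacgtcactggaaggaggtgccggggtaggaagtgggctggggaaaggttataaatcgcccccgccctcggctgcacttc
Kdr: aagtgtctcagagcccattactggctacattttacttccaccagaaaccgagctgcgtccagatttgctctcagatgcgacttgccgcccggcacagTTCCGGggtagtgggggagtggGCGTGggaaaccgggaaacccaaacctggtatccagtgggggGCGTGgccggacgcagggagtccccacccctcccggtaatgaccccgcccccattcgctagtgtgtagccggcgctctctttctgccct
In these 250 bases the Vegfa window held a GATA match on the gene's strand, 182 to 177 bases upstream of the start, and no hypoxia core. The window at the other Vegfa start, not shown, held hypoxia cores at 218 to 214 bases on the gene's strand and at 211 to 207 bases on the opposite strand. That window, chr17:46025164-46025413, lies downstream of the first start and can hold transcribed sequence of the gene. Flt1 had a hypoxia core at 184 to 180 bases upstream on the opposite strand. Kdr had hypoxia cores on the gene's strand at 131 to 127 and at 89 to 85 bases upstream, and an ETS core at 153 to 148 bases on the opposite strand. Over all 9 members, 7 had a hypoxia core in at least 1 of their 11 listed windows, 2 had a GATA match and 1 an ETS core. Counted by window, these were 7, 2 and 1 of 11. Vegfa is among the members with a hypoxia core only through the window at its other start. Matches to different motifs did not overlap in the 3 windows shown. Of the 32851 windows of the same length in the table, 38.6% held a hypoxia core, 26.5% a GATA match and 12.0% an ETS core. A match is a description of the letters, and a window without 1 says nothing of the factor.

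Set against control arrays, the CKO-labelled arrays differ both in a second floxed Gata4 allele and in the Cre allele at Nkx2-5. Flt1 (1.97-fold), Vegfa (1.88-fold) and Kdr (1.61-fold) were higher, and 0 members were called lower. Of the 22 probe sets 3 were called at an adjusted p under 0.05 (limma, Benjamini-Hochberg over all probe sets), all higher, where 0.837% of all probe sets were called higher, 0.566% lower and 1.40% in either direction. A mean above that of control arrays was found for 20 of the 22, and their median difference was 0.30 on the log2 scale against -0.0079 over all probe sets. The CKO-labelled and control arrays did not overlap for 7 member probe sets on 5 genes, all higher, against a background of 3.93% higher, 5.81% lower and 9.73% in either direction. At an unadjusted p under 0.05 there were 13 of 22, on 6 genes, where 13.2% of all probe sets reached it. In a test over all 3 groups (limma's F-test) the same 3 probe sets were called, with adjusted p of 0.0368 for Vegfa, 0.00922 for Flt1 and 0.00570 for Kdr, against 0.961% of all probe sets. Without CKO replicates 2 and 3 the count of called member probe sets was 8, and it was 6 without CKO replicate 3 and 1 without control replicate 1 or 2. It was 0 for the deposited values without normalisation and 1 with median centring. Calls over all probe sets moved in the same direction, from 632 in the reported fit to 1362 without CKO replicates 2 and 3 and 890 without CKO replicate 3. They numbered 168 and 181 without control replicates 1 and 2. Across the array, 377 probe sets were called higher and 255 lower, against 45 and 47 for the deposited values and 142 and 220 with median centring. In whole-heart RNA, more cells of a type and more RNA per cell cannot be told apart.

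**Figure D1:**
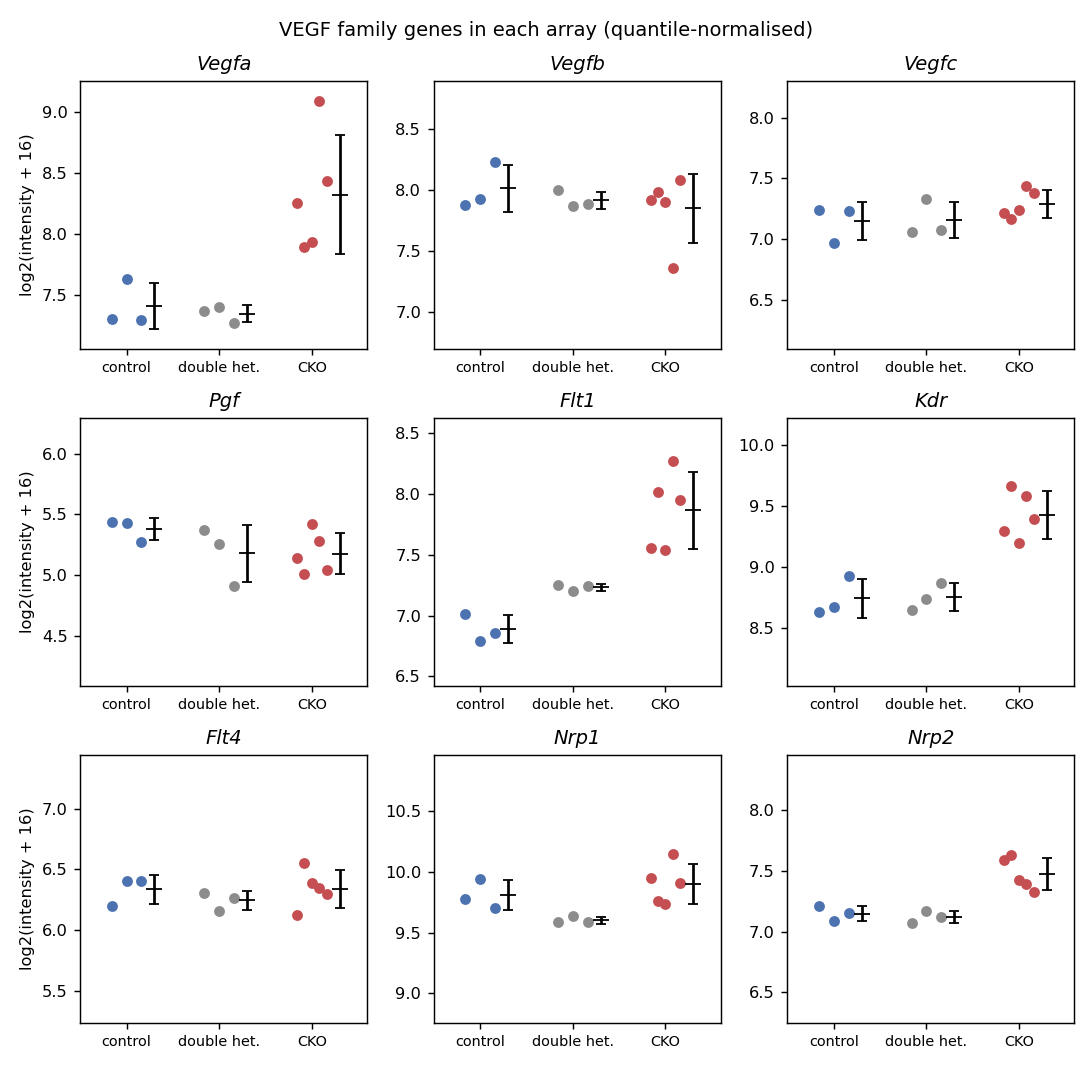
Each panel plots 1 gene on the probe set that represents it, as quantile-normalised log2(intensity + 16), with a point per array and, beside each group, the mean with its SD as the bar (3 control, 3 double heterozygous and 5 CKO-labelled arrays; every y axis spans at least 2.2 log2 units and none starts at 0). For Vegfa, Flt1, Kdr and Nrp2 every CKO-labelled array lies above every other array, while Vegfb, Vegfc, Pgf and Flt4 overlap between the groups.

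Among the ligands, Vegfa stood apart. It read 7.30, 7.63 and 7.29 in control arrays 1 to 3, 7.37, 7.40 and 7.27 in double heterozygous arrays, and 8.25, 7.89, 7.93, 9.10 and 8.44 in CKO-labelled arrays 1 to 5. All 5 CKO-labelled arrays were above all others, the highest being replicate 4. The means were 7.41 ± 0.19 (SD, n = 3) in control, 7.35 ± 0.072 (n = 3) in double heterozygous and 8.32 ± 0.49 (n = 5) in CKO-labelled arrays, so the spread was widest in the CKO-labelled group. The difference from control was 0.91 (SE 0.21, 95% interval 0.47 to 1.36, limma adjusted p = 0.0451). This call lay close to the threshold and was lost in 15 of 23 alternatives, with differences from 0.62 to 1.02 among them (0.76 for the deposited values, 0.75 with median centring). Leaving out any single control or double heterozygous array ended the call (0.86, 1.02 and 0.86 for control replicates 1 to 3, and 0.91 for each double heterozygous replicate), as did leaving out CKO replicate 1 (0.93) or 5 (0.89). Without CKO replicates 2 and 3 together the difference was 1.18 (limma adjusted p = 0.00193).

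The other Vegfa probe set, which is designed against several transcripts of the gene, read 6.55, 6.32 and 6.50 in control arrays and 7.18, 6.21, 7.22, 7.09 and 6.84 in CKO-labelled arrays. Of the CKO-labelled arrays 4 were above all control arrays and replicate 2 was below them. The difference was 0.45 (SE 0.19, adjusted p = 0.309), and 0.62 (adjusted p = 0.0170) without CKO replicate 2.

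The remaining ligands did not pass. Vegfb, a ligand of FLT1 best known from heart muscle, read 7.88, 7.93 and 8.23 in control and 7.92, 7.98, 7.90, 7.36 and 8.08 in CKO-labelled arrays, a difference of -0.16 (SE 0.15, 95% interval -0.47 to 0.15, limma adjusted p = 0.704). The groups overlapped, and CKO replicate 4, the highest array for Vegfa, was the lowest for Vegfb. Vegfc, the lymphatic and venous growth factor, read 7.24, 6.97 and 7.23 in control and 7.21, 7.16, 7.24, 7.43 and 7.38 in CKO-labelled arrays (0.14, 95% interval -0.11 to 0.39, limma adjusted p = 0.685). Its other probe sets were at 0.41, on a probe set whose name marks possible cross-hybridisation, and at 0.20, with limma adjusted p of 0.206 and 0.665, and the first was called without CKO replicates 2 and 3 (0.53, adjusted p = 0.0468). Pgf was dim, at the 47.6th percentile of all probe sets by mean, and read 5.44, 5.43 and 5.28 in control and 5.14, 5.01, 5.42, 5.28 and 5.04 in CKO-labelled arrays (-0.20, 95% interval -0.53 to 0.13, limma adjusted p = 0.641). The intervals of Vegfb, Vegfc and Pgf leave room for changes of up to 0.47, 0.39 and 0.53 in size. Vegfd, the remaining ligand of FLT4 and outside the family as chosen here, was at 0.0026 (SE 0.14, limma adjusted p = 0.997).

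Among the receptors, Flt1 and Kdr rose and Flt4 did not pass. Flt1 read 7.01, 6.79 and 6.86 in control arrays, 7.25, 7.20 and 7.24 in double heterozygous arrays, and 7.55, 8.02, 7.54, 8.27 and 7.95 in CKO-labelled arrays. On this probe set the 3 groups were in separate ranges in that order. The means were 6.89 ± 0.11 (SD, n = 3), 7.23 ± 0.028 (n = 3) and 7.87 ± 0.32 (n = 5), and the difference between CKO-labelled and control arrays was 0.98 (SE 0.15, 95% interval 0.65 to 1.30, limma adjusted p = 0.00444). The call held with each single array left out (0.88 to 1.06). It was lost for the deposited values (0.84, adjusted p = 0.216), without moderation across probe sets (adjusted p = 0.0562) and for the mean of the 4 probe sets (0.58, adjusted p = 0.0542).

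The 4 Flt1 probe sets differed in size and not in direction. Beside 0.98 on the probe set that represents the gene, they were at 0.45 (SE 0.19), 0.70 (SE 0.23) and 0.17 (SE 0.18), with limma adjusted p of 0.323, 0.161 and 0.746. The probe set at 0.70 read 5.92, 6.16 and 6.19 in control arrays and 6.25, 7.23, 6.25, 7.29 and 6.94 in CKO-labelled arrays, so that the groups did not overlap but CKO replicates 1 and 3 lay next to the control arrays. The probe set at 0.45 had CKO replicate 3 lowest of all arrays, at 6.50, and was at 0.62 (adjusted p = 0.0309) without it. Which Flt1 transcripts, full-length or soluble, each probe set reads was not analysed here.

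Kdr, the main signalling receptor of VEGF-A and an early marker of endothelial and cardiovascular progenitors, read 8.63, 8.67 and 8.93 in control arrays, 8.64, 8.74 and 8.87 in double heterozygous arrays, and 9.30, 9.67, 9.19, 9.58 and 9.40 in CKO-labelled arrays. Every CKO-labelled array lay above all 6 others, and the control and double heterozygous arrays overlapped. The means were 8.74 ± 0.16 (SD, n = 3), 8.75 ± 0.11 (n = 3) and 9.43 ± 0.20 (n = 5), and the difference from control was 0.68 (SE 0.11, 95% interval 0.44 to 0.93, limma adjusted p = 0.00678). That call was lost without control replicate 1 (0.63, adjusted p = 0.0739) or 2 (0.65, adjusted p = 0.0665), without moderation, for the deposited values (0.54) and with median centring (0.54). Flt4, the receptor of VEGF-C, read 6.20, 6.41 and 6.40 in control and 6.12, 6.55, 6.39, 6.35 and 6.30 in CKO-labelled arrays, a difference of 0.0052 (95% interval -0.27 to 0.28, limma adjusted p = 0.992). The groups overlapped fully, and the other Flt4 probe set was at 0.071 (SE 0.21).

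The neuropilins did not pass on any probe set, although all 8 of their probe sets had higher means in CKO-labelled arrays. Nrp1, the co-receptor of VEGF-A and of semaphorin 3A, read 9.78, 9.94 and 9.70 in control, 9.59, 9.64 and 9.58 in double heterozygous and 9.95, 9.76, 9.74, 10.14 and 9.91 in CKO-labelled arrays. CKO-labelled and control arrays overlapped, and the difference was 0.091 (SE 0.094, limma adjusted p = 0.754), with its sign turned for the deposited values (-0.061) and under median centring (-0.069). The other 3 Nrp1 probe sets were at 0.27, 0.25 and 0.67, with limma adjusted p of 0.321, 0.376 and 0.0694, and the last of them was called without CKO replicate 1 (0.76, adjusted p = 0.0321).

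Nrp2, the co-receptor linked to VEGF-C and to semaphorin 3F, read 7.21, 7.08 and 7.15 in control, 7.07, 7.17 and 7.12 in double heterozygous and 7.59, 7.63, 7.43, 7.39 and 7.33 in CKO-labelled arrays. All CKO-labelled arrays lay above all others, and the difference from control was 0.33 (SE 0.11, 95% interval 0.10 to 0.55, limma adjusted p = 0.166), which did not pass. Of the other Nrp2 probe sets, those at 0.60 and 0.55 had limma adjusted p of 0.143 and 0.161 and each had CKO replicate 3 as its lowest CKO-labelled array (6.25 and 6.11). Without CKO replicate 3 both were called, at 0.76 (adjusted p = 0.0168) and 0.72 (adjusted p = 0.00582). The last Nrp2 probe set was at the 18.5th percentile of all probe sets, with deposited intensities of 0.05 in control replicate 1, 0.02 in double heterozygous replicate 2 and 0.01 in CKO replicate 2, and its difference of 0.28 (SE 0.26) rests on signal near the floor of the scale.

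**Figure D2:**
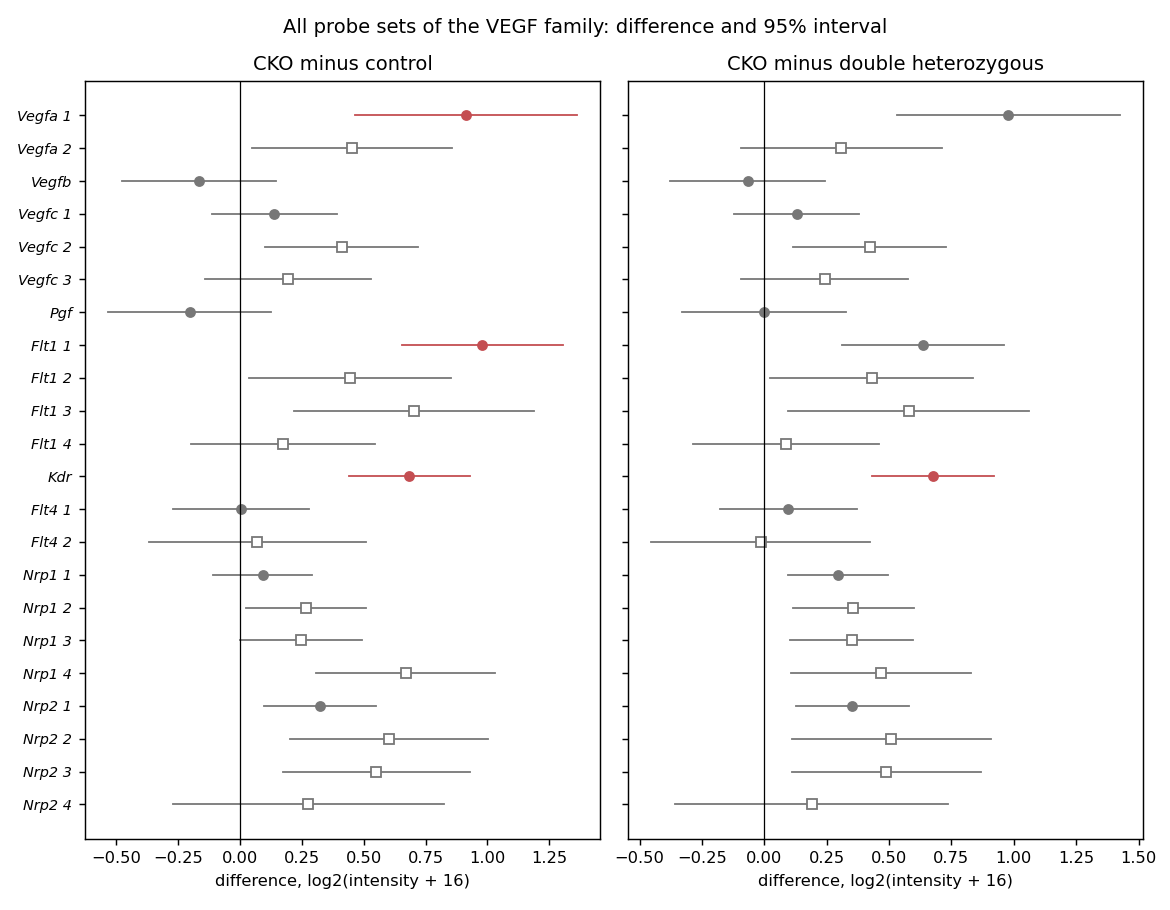
Points give the difference in quantile-normalised log2(intensity + 16) for each of the 22 probe sets, CKO-labelled minus control arrays on the left and minus double heterozygous arrays on the right, and lines the 95% interval from limma. Filled circles mark the probe set that represents the gene, open squares its other probe sets, numbered by falling mean after the representing one, and red marks a call at an adjusted p under 0.05: 3 probe sets on the left and Kdr alone on the right.

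The comparison of CKO-labelled with double heterozygous arrays holds the Cre allele constant and differs in the number of floxed Gata4 alleles. It uses the same 5 CKO-labelled arrays as the comparison above, so the values of both stand side by side and neither supports the other. Kdr was 1.60-fold higher (difference 0.68, SE 0.11, 95% interval 0.43 to 0.92, limma adjusted p = 0.0177) and was the called probe set among the 22, where 0.286% of all probe sets were called higher, 0.0622% lower and 0.349% in either direction. The Kdr call was lost without double heterozygous replicate 1 (0.62, adjusted p = 0.183) or 2 (0.67, adjusted p = 0.128), for the deposited values (0.56) and with median centring (0.51). Vegfa was at 0.98 (SE 0.21, adjusted p = 0.0626), close to its difference from control arrays at 0.91, and was called without CKO replicate 2 (1.08), 3 (1.07) or 4 (0.79). Flt1 was at 0.63 (SE 0.15, adjusted p = 0.104), with every CKO-labelled array above every double heterozygous array, and was called without CKO replicate 3 (0.72, adjusted p = 0.0322).

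In the same comparison Nrp2 was at 0.35 (SE 0.11, limma adjusted p = 0.194) and Nrp1 at 0.30 (SE 0.094, limma adjusted p = 0.218), neither called. On these representing probe sets the CKO-labelled arrays lay above all double heterozygous arrays. A further Nrp1 probe set, at 0.36, had separate groups too. The groups overlapped on the other probe sets of Nrp1 (0.35 and 0.47), Nrp2 (0.51, 0.49 and 0.19), Vegfa (0.31) and Flt1 (0.43, 0.58 and 0.087). Vegfc was at 0.13, Flt4 at 0.096, Vegfb at -0.067 and Pgf at -0.0011, and the arrays of the groups overlapped for each of these 4 genes. The groups did not overlap for 7 of 22 probe sets on 6 genes, all higher, against 3.07% of all probe sets higher, 4.45% lower and 7.52% in either direction. At an unadjusted p under 0.05 there were 13 of 22 against a background of 12.0%. The median over the 22 probe sets was 0.35, against -0.0064 over all probe sets. The count of called member probe sets was 5 without CKO replicates 2 and 3 (Vegfa, Flt1, Kdr, Nrp1 at 0.40 with adjusted p = 0.0336, and a further Nrp2 probe set), 5 without CKO replicate 3 alone, 2 without CKO replicate 2 or 4, and 0 without double heterozygous replicate 1 or 2. Over all probe sets 129 were called higher and 28 lower, against 13 and 2 for the deposited values and 43 and 22 with median centring. In either direction 157 were called in the reported fit, 650 without CKO replicates 2 and 3 and 415 without CKO replicate 3. They numbered 207 and 123 without CKO replicates 2 and 4, and 15 and 35 without double heterozygous replicates 1 and 2.

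The comparison of double heterozygous with control arrays asks what 1 Cre allele at Nkx2-5 goes with when a single floxed Gata4 allele is present in both. Cre can act on that floxed allele in the double heterozygous hearts alone. The Cre, the altered Nkx2-5 allele and a change at Gata4 thus cannot be told apart. In this comparison 0 of 22 member probe sets were called by limma and 0 reached an unadjusted p under 0.05. Over all probe sets 0.00% were called and 3.19% reached an unadjusted p under 0.05. The largest difference among the 9 representing probe sets was that of Flt1, at 0.34 (SE 0.17, 95% interval -0.02 to 0.71, adjusted p = 1), with all 3 double heterozygous arrays above all 3 control arrays. Nrp1 was at -0.21 (SE 0.11, 95% interval -0.43 to 0.02, adjusted p = 1), with all double heterozygous arrays below all control arrays. On the other probe sets of these genes the groups overlapped, with Flt1 at 0.015, 0.12 and 0.087 and Nrp1 at -0.091, -0.10 and 0.20. The other Vegfa probe set had separate groups (0.14). Without overlap, 2 of 22 probe sets thus were higher and 1 lower, against 4.69% and 5.66% of all probe sets, 10.3% in either direction. Vegfa and Kdr were at -0.064 (95% interval -0.56 to 0.44) and 0.0080 (95% interval -0.27 to 0.28). The median over the 22 probe sets was 0.0091.

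Genes downstream of the receptors and partners of the neuropilins were described from lists, each gene on the probe set that represents it. Of 32 measured genes of VEGF receptor signalling, from the phospholipase Plcg1 to the kinase Akt1, 1 was called between CKO-labelled and control arrays, where 2.06% of 18193 genes were called in either direction, 1.20% higher and 0.863% lower. That gene was Cblb, a ubiquitin ligase that dampens receptor kinase signalling (0.45, SE 0.10, adjusted p = 0.0416), which lost its call under 15 of the 23 alternatives. The list split into 14 higher and 18 lower means, with a median of -0.013 against -0.020 over all genes. Of 13 semaphorins, plexins and the neuropilin adaptor Gipc1, 8 had higher means (median 0.12). Sema3g, an endothelial class 3 semaphorin that binds neuropilins, was called higher (1.16, SE 0.20, adjusted p = 0.00753), a call lost without control replicate 2 or 3. Of 13 genes known to be induced in endothelium by VEGF, 11 had higher means (median 0.14) and 1 was called, Aplnr, the apelin receptor (0.76, SE 0.12, adjusted p = 0.00611). The call of Aplnr was lost without control replicate 1 (0.70), for the deposited values (0.61) and with median centring (0.61). In the 3 lists the calls numbered 2, 1 and 2 without CKO replicates 2 and 3, 0, 0 and 0 for the deposited values, and 0, 1 and 0 with median centring. Against double heterozygous arrays 0 genes of receptor signalling, 2 of the semaphorin and plexin list and 1 of the VEGF-induced list were called, all higher, where 0.517% of all genes were called, 0.407% higher and 0.110% lower.

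Genes of the oxygen-sensing system, which sets the activity of hypoxia-inducible factors at Vegfa and other targets, were measured in the same arrays. Of 10 measured, 8 had higher means (median 0.25) and 3 were called: Egln3 (1.54, SE 0.21, adjusted p = 0.00138) and Egln1 (0.75, SE 0.11, adjusted p = 0.00290), the prolyl hydroxylases that mark these factors for destruction and are themselves induced by them, and Epas1 (1.01, SE 0.16, adjusted p = 0.00401), which encodes the endothelial-rich factor HIF-2 alpha. These 3 calls held without CKO replicates 2 and 3, and 1 of them, that of Egln3, remained for the deposited values and without moderation. Hif1a itself was at -0.090 (SE 0.085, adjusted p = 0.727). Of 21 other hypoxia-induced genes 20 had higher means (median 0.73) and 13 were called, all higher. The smallest p-values were those of Bnip3, a mitophagy receptor (0.79, adjusted p = 0.000566), Vldlr, a lipoprotein receptor (1.65), Ddit4, an inhibitor of mTORC1 (1.76), and P4ha2, a collagen prolyl hydroxylase (1.04). This list was composed with earlier results of these arrays known and is not independent evidence of a direction. The 13 calls were 16 without CKO replicates 2 and 3, 6 with median centring and 2 for the deposited values, and 8, 9 and 7 without control replicate 1, 2 and 3. Against double heterozygous arrays 2 of the 10 oxygen-sensing genes, Egln3 (1.42) and Egln1 (0.75), and 9 of the 21 hypoxia-induced genes were called, all higher. The share called higher over all genes was 1.20% against control and 0.407% against double heterozygous arrays, and the share called lower 0.863% and 0.110%. The mean over the hypoxia-induced list lay between 8.83 and 9.46 in CKO-labelled arrays and between 8.37 and 8.49 in all others. Among the CKO-labelled arrays it was highest in replicate 4 and lowest in replicate 3, the dimmest array as deposited. Vegfa and Flt1 were highest in replicate 4, and Kdr in replicate 2. Flt1 (7.54) and Kdr (9.19) were lowest in replicate 3, and Vegfa in replicate 2 (7.89), with replicate 3 next (7.93).

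Flt1, Kdr and Flt4 are themselves endothelial genes, and other endothelial markers were measured beside them. Over all genes 1.20% were called higher and 0.863% lower against control arrays, and 0.407% and 0.110% against double heterozygous arrays. Of 28 markers outside the family 22 had a higher mean in CKO-labelled arrays than in control arrays (median 0.31), 6 were called higher and 1 lower. Those with the smallest p were Clec14a, an endothelial lectin (1.45, SE 0.16, adjusted p = 0.000354), Sox7 (0.95, adjusted p = 0.00164) and Sox17 (0.92, adjusted p = 0.00418), SOXF transcription factors of endothelium, and Tek, the angiopoietin receptor, which was lower (-0.65, SE 0.088, adjusted p = 0.00150). The summed intensity of the 28 markers was 5323 to 5671 in control, 5275 to 5793 in double heterozygous and 6155 to 7066 in CKO-labelled arrays, so all 5 CKO-labelled arrays were above all others. The 7 calls numbered 8 without CKO replicates 2 and 3, 2 for the deposited values, 4 with median centring and 4 without any 1 control array or without CKO replicate 5. Against double heterozygous arrays 25 of the 28 had higher means (median 0.24), with 2 called higher, Clec14a (1.19) and Sox7 (0.85), and 0 lower. Their part in the differences of Flt1 and Kdr was not tested. Of 8 genes used as endocardial markers, Vwf, a clotting factor of endothelium (1.15, adjusted p = 0.000842), and Gata5, a transcription factor of the endocardium (0.43, adjusted p = 0.0464), were called higher, the latter losing its call under 16 of 23 alternatives. Hapln1, a hyaluronan link protein of the cardiac jelly (-0.71, adjusted p = 0.000566), was called lower. The summed endocardial signal was 1966 to 1996 in control, 1855 to 1962 in double heterozygous and 1743 to 2018 in CKO-labelled arrays. By this sum the CKO-labelled range overlapped both others, and the control arrays lay above the double heterozygous arrays. Hapln1, with a mean of 9.79 in control and 9.08 in CKO-labelled arrays, weighs heavily in the sum. The mean log2 value over the 8 genes was 7.34 to 7.38, 7.32 to 7.37 and 7.30 to 7.57 in the same order of groups.

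Markers of other tissues in the pools were measured as well. As a yardstick, 1.20% of all genes were called higher and 0.863% lower against control arrays, and 0.407% and 0.110% against double heterozygous arrays. Of 11 proepicardial and epicardial markers 10 had lower means in CKO-labelled than in control arrays (median -0.78) and 3 were called lower: Lrrn4 (-1.20), Upk1b (-0.997) and Tcf21 (-1.31), genes of the mesothelial layer and its precursors. These calls numbered 1, 0 and 0 without control replicates 1, 2 and 3, 5 without CKO replicate 3 and 6 without CKO replicate 4. Against double heterozygous arrays 8 of the 11 CKO-labelled means were lower (median -0.21) and 0 were called, and between double heterozygous and control arrays 11 of 11 were lower (median -0.41) and 0 were called. Their sum was 1229 to 1343 in control, 617 to 960 in double heterozygous and 397 to 1091 in CKO-labelled arrays. Of 11 markers of foregut and surface epithelium, 9 had higher and 2 lower means in CKO-labelled than in control arrays (median 0.14). Called higher were 3 keratins of simple epithelia, Krt19 (1.59), Krt18 (0.85) and Krt8 (0.71). Against double heterozygous arrays 4 of the 11 means were higher and 7 lower (median -0.037). Sums over the list were 1784 to 1851, 1935 to 2485 and 3355 to 4260 in the same order of groups, and these bright keratins weigh most in them. Of 10 erythroid markers 0 were called (limma, unadjusted p = 0.0407 for Tfrc at 0.17 and 0.0434 for Alas2 at 0.52), with sums of 14076 to 17004, 14354 to 17672 and 13876 to 18431. Of 16 heart muscle markers 1 was called higher, Myh7, the beta myosin heavy chain (0.27, not called once any 1 control array was left out), with sums of 76727 to 78394, 75342 to 78475 and 74995 to 81447. Of 12 cushion and mesenchyme markers 8 had lower and 4 higher means in CKO-labelled than in control arrays (median -0.086). The 1 called was Vcan, which was higher (0.43). Against double heterozygous arrays 8 of the 12 means were lower as well (median -0.30). Sums of the 12 were 3523 to 3895, 3544 to 3914 and 3366 to 4841, and Vcan, with a CKO-labelled mean of 11.19, weighs heavily in them. Of 7 neural markers 5 had higher and 2 lower means in CKO-labelled than in control arrays (median 0.11). The 1 called was Erbb3, which was lower (-0.78, not called without control replicate 2 or 3), and the sums were 210 to 252, 187 to 214 and 177 to 358. Of 9 blood and macrophage markers 0 were called, with Ptprc at -0.76 and Lyz2 at -0.42 and sums of 691 to 730, 604 to 619 and 621 to 1331. Without CKO replicates 2 and 3 the calls numbered 3 of the proepicardial, 3 of the epithelial, 1 of the erythroid, 3 of the heart muscle, 2 of the cushion, 2 of the neural and 1 of the blood markers. That fit called 1362 of all probe sets, against 632 in the reported fit. Against double heterozygous arrays 1 endocardial marker was called higher (Vwf) and 1 lower (Hapln1), 1 cushion marker (Vcan) and 2 epithelial markers (Krt19 and Krt8) higher, and 0 of the heart muscle, erythroid, neural and blood markers were called by limma. No marker of these lists had a deposited value of 0 in every array. The part of these tissues in the VEGF family values was not tested.

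**Figure D3:**
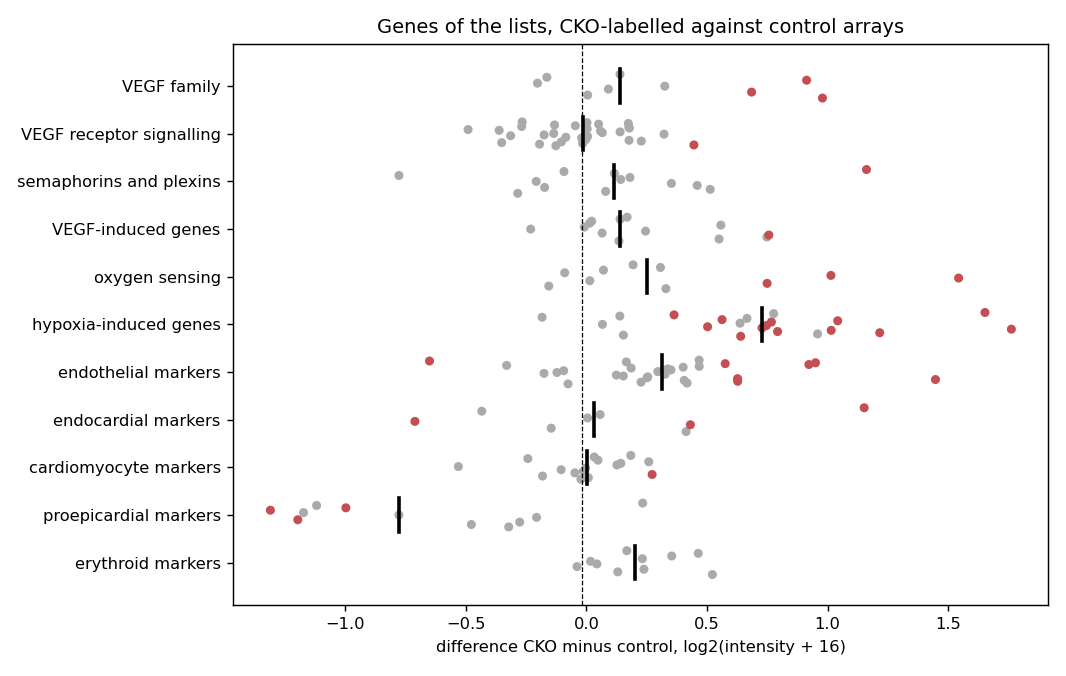
Each point is 1 gene on the probe set that represents it, placed by its difference in log2(intensity + 16) between CKO-labelled (n = 5) and control arrays (n = 3), red where the adjusted p is under 0.05. Black bars are list medians and the dashed line is the median over all 18193 genes (-0.020); the medians of hypoxia-induced genes (0.73) and endothelial markers (0.31) lie to its right, and that of VEGF receptor signalling (-0.013) lies on it.

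The genes whose pattern over the 11 arrays was most like that of each called member were listed by the root mean square difference between log2 values, each centred on its own mean. For Vegfa, whose own root mean square deviation from its mean was 0.56, the closest of all genes were Fzd1 (0.14), a Wnt receptor, Ccng2 (0.15), a cyclin that restrains the cell cycle, Ccn2 (0.18), a matricellular growth factor, Myct1 (0.19), and Ero1a (0.19), a hypoxia-induced oxidase of the endoplasmic reticulum. For Flt1 (0.47) they were Khnyn (0.13), Edn1 (0.15), which encodes the peptide endothelin 1, P4ha1 (0.15), a collagen prolyl hydroxylase, Epas1 (0.16) and Cxcl12 (0.16), a chemokine. For Kdr (0.37) they were Pfkp (0.11), a phosphofructokinase, Btg2 (0.11), an antiproliferative gene, Adamts9 (0.11), a matrix protease, Plekha2 (0.11) and Mbnl2 (0.11), a splicing regulator. The median difference of all genes from these members was 0.61, 0.52 and 0.43. The measure was taken over arrays that include the groups compared, so these genes share the group difference by construction, and all 15 were called higher in the CKO-labelled arrays than in control.

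**Figure D4:**
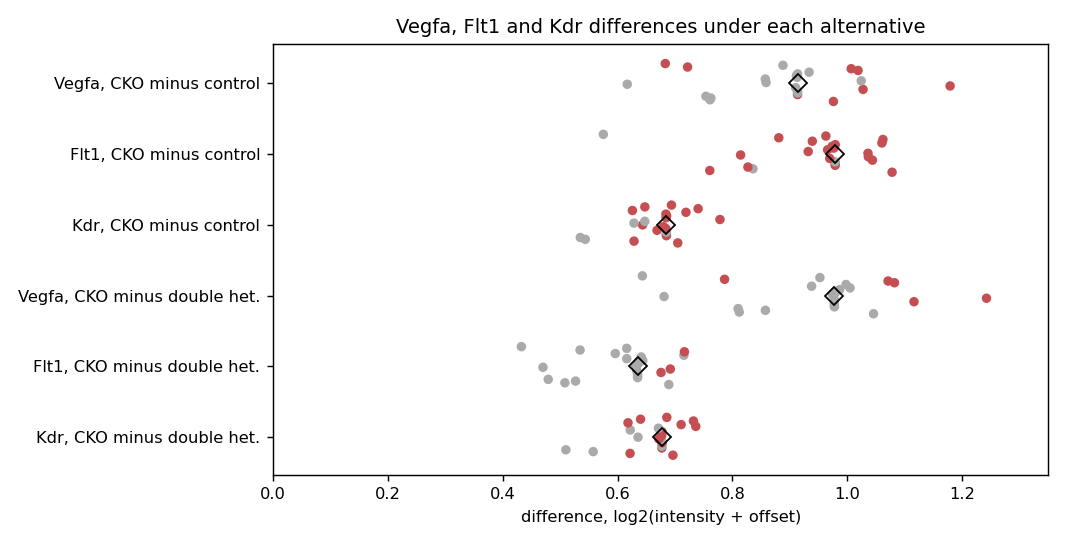
Each row shows the difference of 1 gene in 1 comparison, as the reported value (open diamond) and under every alternative processing (points, red where the adjusted p is under 0.05 and grey otherwise), in log2(intensity + offset), with an offset of 16 except in the alternatives that change it. Every value lies above 0; Flt1 against control arrays lost its call in 3 of 23 alternatives, Kdr in 5 of 22 and Vegfa in 15 of 23.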

How the data were processed

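RNA of pooled embryonic mouse hearts was measured on 11 one-colour arrays. TRIzol-extracted total RNA (50 ng) was amplified and biotin-labelled (Ovation), per the labels' protocols. Values were deposited as intensities on a linear scale, 1 per probe set and array, made with PLIER per the submitters' processing notes. How the authors corrected background and scaled arrays, and any detection calls: not given in the sources used here. Here, deposited intensities were turned into log2(value + 16). Array medians spanned 0.465 (limit 0.2), so the arrays were quantile normalised. The 64 control probe sets were left out. The remaining 45037 were fitted with limma 3.58.1 (R 4.3.3), with 1 coefficient per genotype and an intensity trend. Residual degrees of freedom were 8, or 15.07 when moderated. Tests were two-sided, with Benjamini-Hochberg adjustment over all probe sets. This fit takes the place of the series' one-way analysis and was checked on simulated data.

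Of the probe sets, 34945 had 1 symbol in the platform's annotation, 932 several and 9160 none, and 34741 of the single symbols matched RefSeq. All 9 members matched a RefSeq promoter. A gene's brightest probe set represents it, those ending in _x_at or _s_at being used only for lack of another. The rule names all members, up to 4 called genes per list by smallest p (2 where none was called) and the 5 genes most like each called member. Vegfd and Hif1a were named outside it. Members, lists and motifs were chosen with earlier results of these data known. At most 0.828% of values were identical between any 2 arrays. Alternatives changed the offset (1 or 64), normalisation, filter on dim probe sets, trend, moderation, array weights, samples fitted, replicate block and probe set rule.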

Additional observations from a re-analysis of the deposited data

Results flagged for a closer look

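For 4 of the 22 member probe sets, 1 CKO-labelled array lay far from the other 4, by the gap to the nearest array over the group's range (limit 0.71). Chance flags about 1 in 20 such groups. Vegfb read 7.358 in CKO replicate 4, with the other CKO-labelled arrays between 7.90 and 8.08. The other Flt4 probe set read 4.846 in CKO replicate 3, with the others between 5.38 and 5.55. A Nrp1 probe set, at 0.27 between CKO-labelled and control arrays, read 9.448 in CKO replicate 2, with the others between 8.91 and 9.001. A Nrp2 probe set, at 0.55 between CKO-labelled and control arrays, read 6.111 in CKO replicate 3, with the others between 6.79 and 7.02. In 3 of these 4 cases the array was CKO replicate 2 or 3.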

How the results depend on the processing

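The 3 member probe sets called between CKO-labelled and control arrays numbered 0 for the deposited values, 1 with median centring, 0 without moderation, 10 with array weights and 8 without CKO replicates 2 and 3, and 1 to 6 with 1 array left out. The 1 called against double heterozygous arrays numbered 0 for the deposited values, 0 with median centring, 0 without an intensity trend, 0 without moderation, 0 with only the 2 groups fitted, 3 with array weights and 5 without CKO replicates 2 and 3, and 0 to 5 with 1 array left out. The 3 of the F-test numbered 0 for the deposited values, 0 with median centring, 0 without moderation, 8 with array weights and 7 without CKO replicates 2 and 3, and 1 to 6 with 1 array left out. Between double heterozygous and control arrays 0 were called under each alternative. Calls over all probe sets changed with these settings too. Against control arrays they numbered 632 in the reported fit, 92 for the deposited values, 2393 with array weights and 1362 without CKO replicates 2 and 3. In the same order they numbered 157, 15, 613 and 650 against double heterozygous arrays, and 433, 81, 1599 and 885 in the F-test. Causes of these changes were not tested.

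With the replicate number as a block (replicate block), 2, 0 and 0 member probe sets were called against control, against double heterozygous arrays and in the F-test, and Kdr against double heterozygous arrays was at 0.64 (limma adjusted p = 0.123). Numbers 4 and 5 occur among CKO-labelled arrays alone, so in this fit CKO replicates 4 and 5 do not enter the differences, which rest on CKO replicates 1 to 3. Over 9 pairs of arrays with the same number, deviations from the group means correlated at -0.056 to 0.15, against -0.14 to 0.18 for other pairs, and 7 of 9 arrays had their highest mean correlation with their own number. Each of these arrays had numbers 1 to 3 to match, so 7 of 9 is more than an even draw would give on average. The 9 matches share pairs of arrays and are not independent draws. The labels do not say that the numbers pair samples, so the reported fit does not pair them. Whether arrays of the same number share a batch was not tested. The calls lost with the block rest on the choice not to pair and on the use of CKO replicates 4 and 5, which were not told apart.

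Signs turned only among differences that had not been called. Against control arrays, they turned for Vegfc with median centring (-0.0081), for Nrp1 for the deposited values (-0.061) and with median centring (-0.069), and for Tfrc for the deposited values (-0.0027), with median centring (-0.011) and for the mean of its probe sets (-0.25). Flt4 turned for the deposited values (-0.053), with median centring (-0.062), with array weights (-0.052), without CKO replicates 2 and 3 (-0.082) and with 1 array left out (-0.064 to 0.060), and its other probe set with the block (-0.0020) and with 1 array left out (-0.16 to 0.22). Against double heterozygous arrays, signs turned with the block for Vegfb (0.019), Pgf (0.011), a Flt1 probe set (-0.058) and the dim Nrp2 probe set (-0.069). All differences of CKO-labelled arrays with the block rest on CKO replicates 1 to 3. Pgf also turned with an offset of 1 (0.0057) and for the deposited values (0.043), Vegfc with median centring (-0.019), and the other Flt4 probe set for the deposited values (0.052), with median centring (0.0042), with array weights (0.020) and without CKO replicates 2 and 3 (0.10). With 1 array left out, ranges that crossed 0 were -0.13 to 0.055 for Vegfb, -0.13 to 0.094 for Pgf, -0.0097 to 0.18 for that Flt1 probe set and -0.13 to 0.11 for the other Flt4 probe set. Between double heterozygous and control arrays, signs turned for Vegfc (-0.028) and Kdr (-0.014) for the deposited values, Kdr with array weights (-0.0090), and, averaging over each gene's probe sets, for Vegfa (0.040), Vegfc (-0.015) and Nrp2 (0.053). With 1 array left out ranges that crossed 0 were -0.12 to 0.045 for Vegfa, -0.16 to 0.014 for Vegfb, -0.080 to 0.058 for Vegfc, -0.052 to 0.10 for Kdr and -0.061 to 0.0016 for Nrp2.

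The number of arrays and the lack of detection calls limit what dim probe sets, such as that of Pgf, can show.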
